A study of Mus musculus with 12 samples.

Results

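Cold acclimation over 5 weeks of white fat was examined by setting the 3 arrays of mice kept for 5 weeks at 4 °C (cold_5wk) against the 3 arrays of their 5-week controls (control_5wk). These 6 arrays, chosen by the week and temperature in the sample titles, are 6 of the 12 in the series, and every probe set on them was considered. Each Affymetrix array, read in a single colour, carried total RNA of white adipose tissue. The animals were C57/BL6 males of 6 to 8 weeks. Every mouse had been housed at 22 °C. The treatment notes describe an adaptation to 18 °C lasting 1 to 3 weeks that preceded the move to 4 °C, and they do not say whether controls were adapted too. The titles place the controls at 30 °C, whereas the source names place them at room temperature, so the size of the temperature step is not settled. No transgene or drug was used according to the labels, and the fat depot is not named. Whether each array stands for a different mouse is not stated, so each p-value below measures the spread between arrays, which may be technical. The other 6 arrays, from mice sampled at 1 week, entered the model to share its estimate of spread and served for comparison only.

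White fat stores triglyceride in cells with a single large lipid droplet. In the cold, noradrenaline from sympathetic nerves acts on β-adrenergic receptors, raises cyclic AMP and releases fatty acids. Long cold exposure makes some white depots acquire beige fat cells, which hold many mitochondria and small droplets and burn fatty acids to make heat. Heat is released when uncoupling protein lets protons re-enter the mitochondrial matrix without ATP synthesis, and the tissue commonly gains capillaries and changes its immune cells while this takes place.

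The 6 arrays were alike in overall brightness, with medians of 4.85 to 4.88 on the log2 scale, but they differed in RNA quality and in muscle signal. The mean log2 signal of skeletal muscle genes was 6.54, 6.75 and 6.65 on the control arrays and 5.21, 5.11 and 5.04 on the cold arrays. At 1 week it was 5.11 to 5.33 in the controls, and on the cold_1wk arrays it was 5.21, 7.60 and 5.27. The signal at the 3′ end minus that at the 5′ end of the Actb control probe sets, which grows as RNA is degraded, was 1.04 to 1.16 in the controls and 1.84 to 2.80 in the cold. The same difference for Gapdh was -0.08 to 0.03 in the controls and 0.96, 0.19 and 3.01 on cold arrays 1, 2 and 3. Muscle genes, and the values with these measures in the model, are therefore given apart.

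**Figure D1:**
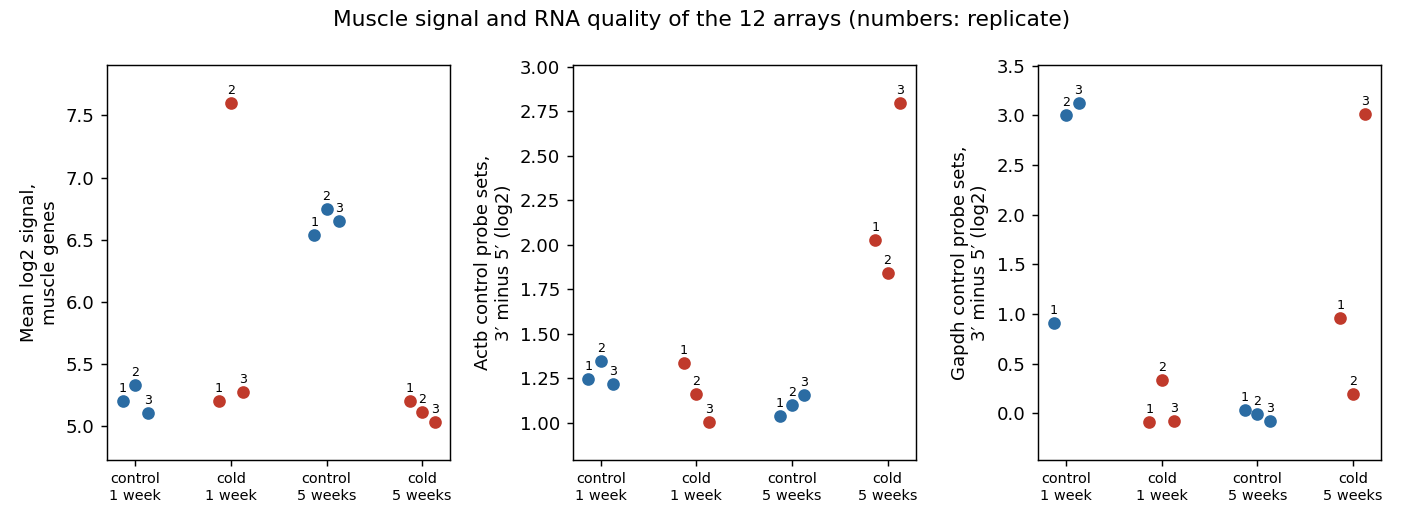
Muscle signal (left, mean log2 signal of the tested muscle genes) and the log2 difference between 3′ and 5′ control probe sets of Actb (middle) and Gapdh (right) on each of the 12 arrays, with the replicate number above each point. The 3 control arrays of 5 weeks lie above the 3 cold arrays of 5 weeks in muscle signal and below them in both 3′ minus 5′ differences.

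Of 12855 genes bright enough to test, 1925 rose (15% of genes tested) and 2730 fell (21.2%) after 5 weeks of cold, at a Benjamini-Hochberg adjusted p under 0.05 in limma, which makes 4655 genes in all (36.2%). Changes of at least 2-fold were fewer, with 345 genes higher and 455 lower, and the median log2 fold change over all genes tested was -0.03. All fold changes are cold over control with n = 3 arrays per group, and SE is the standard error of the log2 fold change. Rises made up 41.4% of the calls on the values as deposited, 53.1% after quantile normalization and 66.6% after centring each array on its median, a step that moved the median of all genes to 0.13. The 3 cold arrays lay wholly above the 3 controls in 28.3% of genes tested and wholly below them in 30.7%, 59% in either direction, so groups that do not overlap are common here. Small changes in either direction are therefore not fixed by these data, whereas the large ones described first lie far outside that shift. With the Actb difference as a covariate 795 genes were called (485 higher, 310 lower). That difference does not overlap between the 2 groups of 5 weeks, so its part and that of the cold cannot be told apart within them.

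The largest rises included genes of heat production and fatty acid burning. Ucp1, the uncoupling protein that defines thermogenic fat, had log2 signals of 8.15, 6.39 and 6.32 on the control arrays and 14.65, 14.80 and 14.56 on the cold arrays. All 3 cold arrays lay far above the controls, of which control array 1 was the highest. The rise was 209.8-fold (log2 7.71, SE 0.42, adjusted p = 7.34e-07). Elovl3, which elongates fatty acids in brown fat, had 4.06, 2.79 and 3.56 in the controls and 11.34, 11.56 and 11.10 in the cold, a log2 difference of 7.86 (SE 0.49, adjusted p = 1.67e-06). Because 2 of its control values were below the detection floor of log2 4 used here, the size of that rise is less certain than its direction. Cox7a1, a cytochrome c oxidase subunit of heart, muscle and brown fat, went from 8.36, 8.04 and 8.47 to 12.90, 12.97 and 12.45 (22.4-fold, SE 0.30).

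Genes of fatty acid handling were also among the 20 largest rises. Fabp3, the fatty acid binding protein of oxidative tissues, had 6.60, 6.54 and 6.85 in the controls and 12.14, 12.40 and 11.55 in the cold (41.3-fold, SE 0.28). A second, dimmer Fabp3 probe set was at only 0.49 on the log2 scale and did not pass. Slc27a2, which imports and activates very long-chain fatty acids, was below the floor on every control array and had 8.23, 8.69 and 8.35 in the cold, at least 21.5-fold higher. Acot11, an acyl-CoA thioesterase induced in brown fat, rose 36.7-fold from 7.54, 7.30 and 7.08 to 12.54, 12.48 and 12.49. The control and cold arrays were apart in each of these genes by several times their own spread. Plin5, which ties lipid droplets to mitochondria, rose 16.1-fold (7.86, 6.95 and 7.42 against 11.42, 11.29 and 11.55). Slc25a20, the carnitine carrier that brings long acyl chains into the matrix, rose 6.50-fold, and its second probe set gave 2.74 on the log2 scale beside 2.70.

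Other genes of fuel metabolism rose as well. Pdk4, the kinase that shuts pyruvate out of the citric acid cycle, rose 17.7-fold, from 9.59, 9.33 and 9.32 to 13.57, 13.63 and 13.49 (log2 4.15, SE 0.18, adjusted p = 1.79e-07). Pank1, the first enzyme of coenzyme A synthesis, rose 10.1-fold, and its 2 other probe sets rose by 3.00 and 3.94 on the log2 scale. Esrrg, an orphan nuclear receptor of oxidative tissues, had 3.98, 3.95 and 4.87 in the controls and 6.83, 6.68 and 7.79 in the cold (7.13-fold, SE 0.39), while another of its probe sets changed by 0.28. The other members of the 20 largest rises were S100b, Mfsd4b1, Otop1, Dio2, Kng1, Aspg, Tlcd4, Letmd1 and Pm20d1. Among these, S100b, a calcium-binding protein of glia that thermogenic fat cells also make, rose 37.2-fold, from 4.43, 4.29 and 4.57 to 9.45, 9.71 and 9.79. Otop1, a proton channel, rose 13.2-fold, Aspg, an asparaginase, rose 8.56-fold, and Letmd1, a mitochondrial protein, rose 6.74-fold. Pm20d1, a secreted enzyme that makes uncoupling N-acyl amino acids, rose 6.7-fold. The groups of 3 arrays did not overlap for any of the 20 genes, as the naming rule requires, and each call held when any single array of the 12 was left out.

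Dio2 encodes the deiodinase that turns thyroxine into active thyroid hormone inside the fat cell, and its promoter is a textbook target of cyclic AMP. The 3 controls were at 2.90, 2.69 and 3.54, all below the floor, and the cold arrays at 6.41, 6.78 and 6.55, so that the rise was at least 5.97-fold. The 250 bases before its start in the RefSeq annotation of GRCm38.p6, chr12:90739039-90739288 on the minus strand, are shown because this is the thermogenic gene among the largest rises whose window holds a full cyclic AMP response element. Capitals mark that element, TGACGTCA, which begins 95 bases before the start.
Dio2 promoter: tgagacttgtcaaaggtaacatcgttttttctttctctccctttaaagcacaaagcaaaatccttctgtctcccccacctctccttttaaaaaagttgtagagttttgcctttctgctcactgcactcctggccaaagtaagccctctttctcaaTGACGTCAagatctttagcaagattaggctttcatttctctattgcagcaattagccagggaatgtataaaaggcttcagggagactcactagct
The same 8 letters were found on either strand in 2.84% of 10323 tested genes with a promoter in the reference and in 1 of 17 of the largest rises. AAGGTCA, the core site of the estrogen-related receptors, was found in 1 of those 17 (Slc27a2) against 3.66% of all, and the spaced direct repeat read by the PPAR nuclear receptors was found in none of those 17 windows and in 0.0291% of all. These counts describe the 250-base windows only.

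Over the whole thermogenic list, 22 of 29 tested genes rose, 1 fell and 6 did not pass, with a median log2 fold change of 2.52. The 20 largest rises include 14 genes of this list. The list was chosen with earlier results of these data known, so the count describes how broad the change was and no more. Members that rose less included Cidea, a droplet protein of brown fat (11.40, 11.30 and 11.41 against 13.75, 13.97 and 13.04), and Cox8b, a cytochrome c oxidase subunit of muscle and brown fat (10.96, 10.97 and 10.94 against 13.24, 13.34 and 11.89). In both genes cold array 3, the array with the largest 3′ minus 5′ differences, was the lowest of the cold arrays. Among members picked here after their values were seen, Ppargc1a, the coactivator that drives mitochondrial biogenesis, rose by 1.79 (6.26, 6.67 and 6.34 against 7.96, 8.54 and 8.15), and Ppara, the nuclear receptor for fatty acids, rose by 2.52. Tmem26, a surface marker proposed for beige cells, went the other way, from 4.54, 5.44 and 5.70 to 3.87, 4.31 and 3.22 (log2 -1.43, SE 0.43, adjusted p = 0.0228). Prdm16, a transcriptional regulator of brown and beige fate, was also looked up after the fact, had 6.43, 6.47 and 7.25 against 7.21, 7.46 and 7.84 and did not pass (log2 0.78, adjusted p = 0.094).

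**Figure D2:**
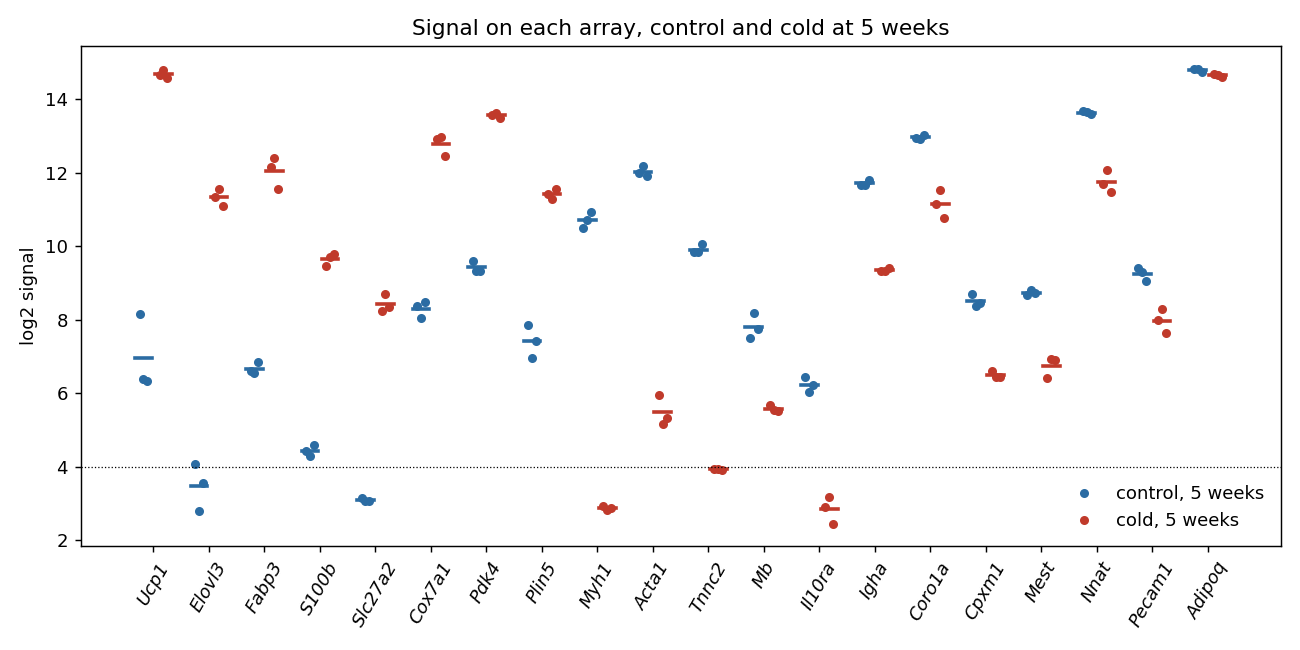
Log2 signal of 20 named genes on each of the 3 control arrays (blue) and 3 cold arrays (red) of 5 weeks; short lines are group means and the dotted line is the floor of log2 4. From Ucp1 to Plin5 all cold points lie above the control points, from Myh1 to Pecam1 all lie below them, and the Adipoq groups differ by 0.15.

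The enzymes of mitochondrial β-oxidation rose together. In that list 18 of 23 genes rose and 5 did not pass (median 1.08). Etfdh, which passes electrons from β-oxidation to ubiquinone, had tight groups, moving from 10.33, 10.41 and 10.34 to 12.72, 12.74 and 12.68 (log2 2.36, SE 0.09, adjusted p = 1.18e-07). Acaa2, the last thiolase of the spiral, rose by 2.07, Cpt2, the inner carnitine palmitoyltransferase, by 1.83, and Acadl, a long-chain acyl-CoA dehydrogenase, by 1.56. Their other probe sets rose too, by 1.67 to 1.70 for Acaa2 and 0.96 for Cpt2. Peroxisomal genes were less uniform, with 14 of 25 up and 11 not passing (median 0.43). The largest among the named ones were Abcd3, a peroxisomal acyl-CoA transporter (log2 1.66, SE 0.11), Acaa1b, a peroxisomal thiolase (1.64, SE 0.15), and Hsd17b4, the peroxisomal multifunctional enzyme (1.01, SE 0.10).

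The respiratory chain followed in most of its parts. Complex I had 30 of 33 tested subunits and factors up (median 0.80), complex II 3 of 4 (0.93), complex III with cytochrome c 8 of 10 (1.06), complex IV 9 of 13 with 1 down (0.61) and ATP synthase 9 of 16 with 2 down (0.48). Ndufv1, which takes electrons from NADH, went from 11.54, 11.60 and 11.70 to 13.11, 13.10 and 13.22 (log2 1.53, SE 0.09). Of the other complex I genes Ndufa10 rose by 1.51 and Ndufs1 by 1.39. Sdhd, a membrane anchor of succinate dehydrogenase, rose by 1.23, Uqcrfs1, the Rieske protein, by 1.20 and Cycs, cytochrome c, by 1.11, with tight groups of 13.63, 13.63 and 13.70 against 14.81, 14.75 and 14.72. These shifts of about 2-fold were small beside that of Ucp1, yet most exceeded the spread between arrays many times over.

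Several subunits of complex IV come in paired forms, and the forms of a pair differed in their changes. Cox7a1, the form of muscle and brown fat, rose by 4.48, while its liver-type partner Cox7a2 rose by 0.61 (13.43, 13.46 and 13.50 against 14.09, 14.06 and 14.08). Cox6a1, the widespread form, rose by 0.52 (SE 0.08), and Cox6a2, the heart and muscle form, fell by 0.85 (6.39, 6.19 and 6.19 against 5.57, 5.48 and 5.18, adjusted p = 0.0321). Cox6a2 was also higher by 1.22 on the single 1-week cold array with high muscle signal than on its 2 group mates, so its fall is among those that moved with muscle signal. Cox8b rose by 1.86 and Cox8a, its widespread counterpart, did not pass (-0.11, adjusted p = 0.695), with cold values of 11.32, 11.32 and 10.47. With the Actb difference as a covariate Cox8a was higher by 0.90. In ATP synthase, Atp5g1 (-1.32, SE 0.20) and Atp5g3 (-0.30, SE 0.09), 2 of the genes for its c subunit, fell while Atp5pb (0.84), Atp5h (0.79) and Atp5a1 (0.61) rose.

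Citric acid cycle and pyruvate entry genes rose in 22 of 26 cases (median 1.08). Idh3b and Idh3g, subunits of the NAD-dependent isocitrate dehydrogenase, rose by 1.49 and 1.47, Ogdh, of the oxoglutarate dehydrogenase complex, by 1.42 and Fh1, fumarase, by 1.27. The remaining called members, 3 in number, fell. Pcx, pyruvate carboxylase, which refills the cycle and feeds fat synthesis in white adipocytes, went from 12.79, 12.87 and 12.78 to 11.83, 11.30 and 11.18 (log2 -1.38, SE 0.17, adjusted p = 0.000149). Pdk3 fell by 0.78 while its relative Pdk4 rose, and Pdp1, a pyruvate dehydrogenase phosphatase, fell by 0.39. In the mitochondrial ribosome list, whose members are all named Mrpl or Mrps, 36 of 74 genes rose, 4 fell and 34 did not pass (median 0.27). Mrpl39 and Mrps2 rose by 1.25 and 1.21, whereas Mrpl14, Mrpl18, Mrpl23 and Mrpl11 fell by 0.25 to 0.44 (Mrpl14 was at 0.159 with the Actb covariate). The fall of Mrpl11 belongs to its brightest probe set alone, since its 3 others rose by 0.33 to 0.69.

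**Figure D3:**
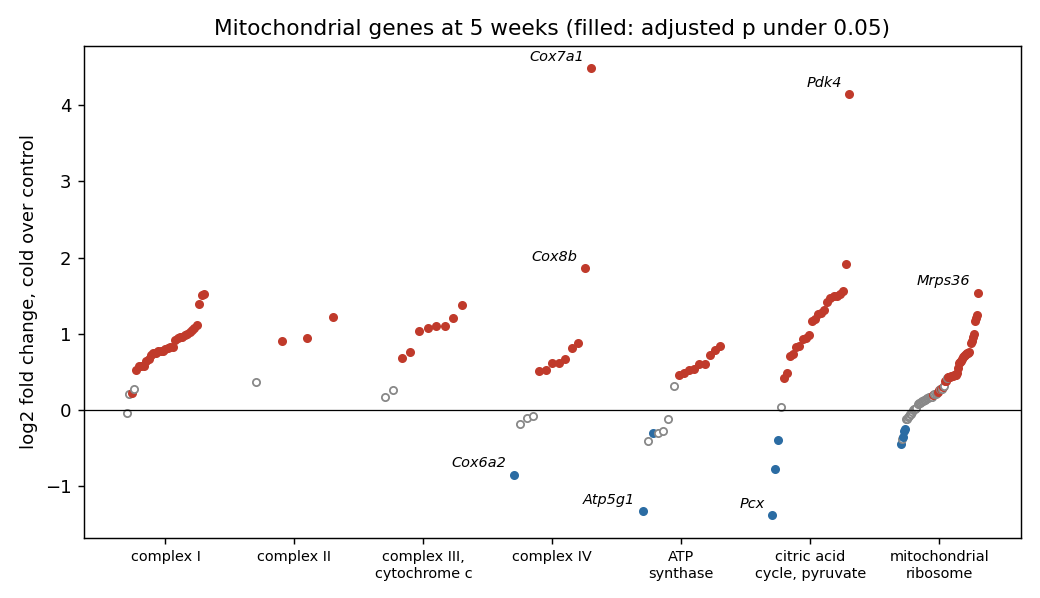
Log2 fold change at 5 weeks (vertical axis) of each tested gene in 7 mitochondrial lists (horizontal axis), sorted within a list; filled red points rose, filled blue points fell, open points did not pass. Complex I lies almost wholly above 0, and Cox7a1 and Pdk4 stand far above their lists while Cox6a2, Atp5g1 and Pcx lie below 0.

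Genes of glucose use, lipid making and amino acid breakdown changed in part. In glycolysis 8 of 18 genes rose and 10 did not pass (median 0.35). Ldhb, the lactate dehydrogenase form that favours lactate oxidation, rose 5.41-fold, from 9.26, 9.36 and 9.36 to 11.71, 11.79 and 11.78 (adjusted p = 1.45e-07). Slc16a1, the monocarboxylate carrier MCT1, rose by 1.63, Pfkl, a phosphofructokinase, by 1.60, and Pgk1 by 1.25. For fatty acid synthesis 12 of 25 rose and 2 fell (median 0.28), among them Acacb, whose malonyl-CoA restrains carnitine palmitoyltransferase (1.91, SE 0.20, with a second probe set at -0.02), Elovl6 (1.42) and Acly (0.61), while Srebf1, the lipogenic transcription factor, fell by 0.49. Gpam, which starts triglyceride synthesis, rose by 0.74 on its brightest probe set, and the other was at -0.84 and did not pass. Branched-chain amino acid breakdown rose in 14 of 20 genes (median 0.57), such as Pcca (1.42) and Hibch (1.18), and 9 of 20 rose with muscle signal in the model. In the lipolysis and lipid droplet list 9 of 18 rose (median 0.40), among them Cideb (2.47), Plin2 (1.13) and Pck1 (1.01), the last of which makes glycerol backbone from pyruvate in fat. With the Actb covariate, when 3.77% of all genes tested rose, the counts that rose were 18 of 74 for the mitochondrial ribosome, 6 of 25 for peroxisomes, 6 of 20 for branched-chain amino acids, 5 of 18 for lipolysis and 3 of 25 for fatty acid synthesis.

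Identity genes of the fat cell were called about as often as all genes tested. Adipoq, the adiponectin gene and a defining marker of fat cells, had 14.83, 14.81 and 14.73 in the controls and 14.68, 14.66 and 14.59 in the cold (log2 -0.15, adjusted p = 0.143). Pparg, the master regulator of fat cells, had 11.80, 11.94 and 11.98 against 11.83, 11.80 and 11.85, groups that overlap. Fabp4 rose by 0.23 (15.58, 15.51 and 15.51 against 15.79, 15.75 and 15.73). Against these, Lep, the leptin gene, fell 1.85-fold, from 10.79, 10.999 and 10.68 to 9.81, 9.75 and 10.26 (adjusted p = 0.00108). Retn, the resistin gene, fell by 0.47. Mest and Nnat, imprinted genes tied to fat cell size, fell by 1.99 and 1.90, Nnat from 13.66, 13.65 and 13.59 to 11.68, 12.06 and 11.46. Sncg, synuclein gamma, fell by 1.44 and Rarres2, the chemerin gene, by 1.10. Of 24 tested genes in this list 4 rose and 6 fell, near the shares of 15% and 21.2% over all genes, and the median of -0.10 turned to 0.05 when arrays were centred.

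Nerve and hormone signals upstream of heat production were also looked at. In the adrenergic and thyroid list 10 of 19 genes rose and 4 fell (median 0.37), beside 15% and 21.2% of all genes, so the falls are at the general share; without control array 1, 6 rose and 1 fell, and with the Actb covariate 3 rose. Adcy3, an adenylyl cyclase, rose by 1.10 (8.26, 8.43 and 8.32 against 9.29, 9.54 and 9.48), Pde4d, which breaks down cyclic AMP, by 1.00 and Prkar2b, the regulatory subunit of protein kinase A in fat, by 0.71. Creb1 (-0.61), Adcy6 (-0.57), Rxra (-0.40) and Thra (-0.36) fell on their brightest probe sets, those of Creb1 being at odds with 4 others at -0.16 to 0.07. Among insulin pathway genes 11 of 24 fell and 1, Insr (0.27), rose. Only 7 fell without control array 2, and 7 without cold array 1.

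Skeletal muscle genes made up the largest falls. The muscle signal of the arrays is a mean of such genes, so their agreement with it was fixed by construction. Acta1, skeletal α-actin, had 11.99, 12.17 and 11.90 on the control arrays and 5.94, 5.15 and 5.33 on the cold arrays (93.4-fold lower, log2 -6.54, SE 1.43, adjusted p = 0.00446). Yet the 1-week controls were at 7.63, 7.20 and 6.88, and the 1-week cold arrays at 5.97, 13.34 and 6.58. The 5-week controls were thus well above every other array except cold_1wk array 2. Myh1, a fast myosin heavy chain, had 10.48, 10.70 and 10.91 in the controls and was below the floor on all cold arrays, at least 104-fold lower. Tnnc2, fast troponin C, had 9.84, 9.83 and 10.04 in the controls and a fall of at least 59.8-fold, and Tnnt3, fast troponin T, was at least 13.3-fold lower. Atp2a1, the calcium pump of fast fibres (7.51, 7.62 and 7.28 against 4.68, 4.09 and 2.62), and Mylpf, a fast myosin light chain (8.58, 8.75 and 9.01 against 4.66, 5.28 and 5.47), fell 12.8-fold and 12.5-fold.

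Because cold_1wk array 2 widened the model's spread for these genes, their tests were weak for their size. Of 12 tested fast sarcomere genes 5 fell in the model of 12 arrays (median -2.77), 11 fell when only the 6 arrays of 5 weeks were fitted, 2 or 3 when any single array of 5 weeks was left out, and 11 without cold_1wk array 2. Ckm, muscle creatine kinase and a defining marker, had 8.42, 8.73 and 8.80 against 5.28, 5.34 and 5.30 and did not pass (adjusted p = 0.0596). Myh4, another defining marker, had 7.84, 7.73 and 7.94 against 5.46, 5.39 and 5.70 (adjusted p = 0.131). Neither pair of groups overlapped. Several calls were lost on leaving out single arrays of 5 weeks: that of Tnnt3 without any 1 of the 6, that of Mylpf without any 1 except cold array 3, and that of Atp2a1 without any control array or without cold array 3. With muscle signal as a covariate, which is itself made from such genes, 1 of the 12 fell and 4 rose (median 0.43), and of the 10 largest muscle falls Myh1, Acta1 and Mb were still called. With the Actb covariate Mb alone of those 10 was called, and with the control arrays averaged as 1 Myh1 and Mb were. Slow-fibre genes gave small values: of 7 tested 1 fell and 1 rose, and Myh7, slow myosin, was at 4.78, 4.74 and 4.74 against 4.82, 4.79 and 4.81.

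The broader muscle list had 8 of 27 genes down and 2 up (median -0.33, or -0.05 with values under the floor set to it), and 13 down and 3 up without cold_1wk array 2. Ttn, titin, a defining marker, fell by 2.52 (7.68, 8.43 and 8.40 against 5.68, 5.63 and 5.63), although its other 2 probe sets gave -0.94 and 0.23. Mb, myoglobin, fell by 2.23 (7.50, 8.17 and 7.75 against 5.68, 5.53 and 5.52). Mb rose at 1 week by 0.89, and its cold effect at 5 weeks was lower by 3.12 (SE 0.32, adjusted p = 0.00152 for the difference). Apobec2, a muscle member of the deaminase family, was at least 4.19-fold lower, and Neb and Smpx, sarcomere-associated genes, were at least 1.30-fold and 1.51-fold lower. Fbxo32, the ubiquitin ligase atrogin, went up by 0.73. Genes shared by muscle and thermogenic fat included rises: in the muscle metabolism list 6 of 16 rose, among them Fabp3, Pdk4 and Fbp2 (1.44), and 2, Cox6a2 and Phkg1, fell. In all, 27 of the 2730 genes that fell, and 19 of the 455 that fell at least 2-fold, were on a muscle list or moved with muscle signal on the 1-week cold arrays. Counting only movement with muscle signal, there were 22 among the 2730 and 102 among all 12855 genes tested, a similar share.

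The promoters of the muscle genes that fell together are shown for 4 of them, since they hold motifs read by muscle transcription factors; capitals mark these. They are the 250 bases before the RefSeq start in GRCm38.p6: Acta1 at chr8:123894776-123895025 (minus strand), Myh1 at chr11:67199852-67200101 (plus strand), Mylpf at chr7:127211358-127211607 (plus strand) and Atp2a1 at chr7:126463074-126463323 (minus strand). In Acta1 the capitals are the E-box CAGCTG, which myogenic factors such as MyoD bind, and a CArG box, the site of serum response factor. In Myh1 they are a MEF2 site, and in Mylpf and Atp2a1 the E-box.
Acta1 promoter: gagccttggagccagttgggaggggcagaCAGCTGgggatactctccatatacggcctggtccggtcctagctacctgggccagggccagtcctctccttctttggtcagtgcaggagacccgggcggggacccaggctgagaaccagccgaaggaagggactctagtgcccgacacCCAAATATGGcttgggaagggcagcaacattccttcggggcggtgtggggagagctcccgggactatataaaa
Myh1 promoter: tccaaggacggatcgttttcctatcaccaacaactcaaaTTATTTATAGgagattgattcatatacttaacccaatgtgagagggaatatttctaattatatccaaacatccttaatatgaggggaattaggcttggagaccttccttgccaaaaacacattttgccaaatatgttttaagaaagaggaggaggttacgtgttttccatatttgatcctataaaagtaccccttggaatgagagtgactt
Mylpf promoter: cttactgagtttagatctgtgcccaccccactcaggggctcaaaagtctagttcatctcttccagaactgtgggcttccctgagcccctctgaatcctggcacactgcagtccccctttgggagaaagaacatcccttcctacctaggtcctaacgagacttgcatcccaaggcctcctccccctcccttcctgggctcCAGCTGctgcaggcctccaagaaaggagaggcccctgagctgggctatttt
Atp2a1 promoter: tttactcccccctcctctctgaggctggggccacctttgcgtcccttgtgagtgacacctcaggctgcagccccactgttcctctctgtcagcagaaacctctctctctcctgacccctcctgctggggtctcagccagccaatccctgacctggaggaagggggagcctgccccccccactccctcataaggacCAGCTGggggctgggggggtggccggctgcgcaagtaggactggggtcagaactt
CAGCTG was present in 5 of the 8 muscle genes with a promoter in the reference (62.5%), against 14.7% of all 10323 tested genes and 1 of 17 of the largest rises. A MEF2 site was found in 2 of the 8 (25%) against 2.06%, and a CArG box in 1 of the 8 (12.5%) against 1.5%. The E-box reads the same on both strands, and no motif overlapped another in the windows shown.

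Many immune genes were among the falls outside muscle. Because the tissue was measured in bulk, fewer cells of a type and less RNA per cell cannot be told apart. Il10ra, a chain of the interleukin 10 receptor, fell from 6.44, 6.02 and 6.21 to values below the floor, at least 4.67-fold (log2 -3.38, SE 0.23, adjusted p = 2.77e-06). Igha, the constant region of immunoglobulin A, had 11.66, 11.65 and 11.81 against 9.32, 9.31 and 9.40, a fall by 2.36 that its other 2 probe sets matched with -2.88 and -2.59. Coro1a, an actin regulator of white blood cells, fell by 1.82 (12.94, 12.92 and 13.02 against 11.13, 11.53 and 10.76). Itgam, the integrin CD11b, fell by 1.90, Folr2, a folate receptor of tissue macrophages, by 1.85 and Ccl12, a monocyte chemokine, by 1.92. C1qa, a chain of complement C1q, fell by 2.62 (11.62, 11.53 and 11.51 against 9.03, 10.05 and 7.71). Its 3 cold values ran in the reverse order of the Gapdh 3′ minus 5′ differences of their arrays, with the lowest on array 3, where that difference was 3.01. With the Gapdh covariate its log2 fold change was -1.44 (adjusted p = 0.000155), and with the Actb covariate it was -0.334 and did not pass (adjusted p = 0.871). The immunoglobulin gene Ighg3 (-2.30) was sorted with the muscle falls by the rule used here, since it was higher by 1.24 on cold_1wk array 2.

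Across the macrophage list 28 of 34 genes fell and 6 did not pass (median -0.82). Lyz2, lysozyme, went from 13.80, 13.76 and 13.67 to 12.62, 12.88 and 12.71, Aif1 fell by 1.38 and Mgl2, a lectin of alternatively activated macrophages, by 1.08. Of the defining markers, Adgre1, an adhesion receptor of macrophages, fell by 0.47, and Csf1r, the receptor for macrophage colony-stimulating factor, did not pass on its brightest probe set (11.77, 11.78 and 11.72 against 11.62, 11.61 and 11.78), while its 2 others fell by 0.86 and 0.31. T cell genes fell in 16 of 20 cases (median -0.98), such as Cd3d (-1.67), Cd4 (-1.31) and Cd2 (-1.15), and the defining marker Cd3e fell by 0.73. All 8 tested MHC class II genes fell (median -1.10), including H2-Ab1 (13.22, 13.23 and 13.12 against 12.01, 12.15 and 11.91), Cd74 (-0.77) and their transactivator Ciita (-1.15). In the B and plasma cell list 8 of 14 fell, Cd79a by 1.27, but the count was 3 to 6 when any single array of 5 weeks was left out, 3 without cold array 3 or control array 1. The mean log2 signal of the macrophage list was 9.94 to 9.98 in the controls and 9.003 to 9.17 in the cold. It was 8.36 to 8.43 against 7.44 to 7.54 for T cells and 11.16 to 11.20 against 9.96 to 10.30 for MHC class II. Groups without overlap were also found for 59% of all genes tested, so these means add little to the counts.

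The counts of calls over all genes dropped when the Actb difference entered the model, to 3.77% of genes tested higher and 2.41% lower. In that model 9 of 34 macrophage genes, 1 of 20 T cell genes and 1 of 8 MHC class II genes fell. The medians of these lists were then -0.82, -0.96 and -0.80. With muscle signal as a covariate 6 of 20 T cell genes fell, where 10.3% of all genes tested did. Of the 20 largest falls outside muscle, all 20 were still called with the Gapdh covariate and 8 with the Actb covariate: Il10ra, Igha, Erdr1, Cpxm1, Mest, Igfals, Srpx and Folr2. Of the 20 largest rises 18 were still called with the Actb covariate, all but Esrrg and Pm20d1. Both sets were picked by size from these same values, and their changes differ in size. The 2 counts therefore do not compare rises with falls.

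Related inflammatory programmes followed the same direction. Of 23 chemokine genes and receptors 12 fell and 2 rose (median -0.60), led by Ccr7 (-1.43), the lymph node homing receptor, and Ccl5 (-1.25), against rises of Ccl27a (0.68) and Ccl25 (0.33). In the interferon list 14 of 27 fell (median -0.56), with Oas1a (-1.42), Bst2 (-1.30), Stat2 (-1.11) and Irgm2 (-0.74) among them. Cell cycle genes fell in 22 of 37 cases (median -0.57), such as Birc5, a mitotic inhibitor of apoptosis (-1.29), Ccna2, cyclin A2 (-1.28), and Mcm6 and Pcna of DNA replication (-1.27 and -1.05). Neither list had a gene called in limma with the Actb covariate in the model. At an unadjusted p under 0.05 in that limma fit 6 interferon and 9 cell cycle genes were lower. The share of all genes lower at that threshold is not given here, so these counts cannot be told from a general share. In the immediate early list 11 of 23 fell (median -0.59), among them Ier2 (8.23, 7.96 and 7.86 against 6.28, 6.79 and 6.32) and Fosl2 (-1.01), and 4 of 23 fell with that covariate. Metallothionein 2, Mt2, which binds zinc, fell 2.92-fold with tight groups (10.89, 10.79 and 10.84 against 9.22, 9.39 and 9.28).

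Matrix genes were lower in the cold as well. Of 36 tested extracellular matrix genes 28 fell, 2 rose and 6 did not pass (median -0.64). Col6a1, a microfibrillar collagen of fat, had 11.40, 11.52 and 11.38 against 10.48, 10.56 and 10.49 (log2 -0.92, SE 0.07, adjusted p = 8.46e-06). Its partners Col6a2 and Col6a3 fell by 0.82 and 0.85, Col1a2 by 0.88 and Col15a1 by 0.71. Lox, which crosslinks collagen, and Col8a1 rose, by 0.36 and 0.66, the latter at -0.101 with the Actb covariate. Among progenitor and fibroblast genes 12 of 19 fell (median -0.57), such as Mfap5 (-0.87), Cd55 (-0.76) and Dcn (-0.57), and Zfp423, a transcription factor of committed preadipocytes, rose by 0.50. Cpxm1, a secreted carboxypeptidase-like protein, and Srpx, a secreted sushi-domain protein, were among the 20 largest falls, at -2.02 (SE 0.11, adjusted p = 6.60e-07) and -1.88. With the Actb covariate 4 of 36 matrix genes and 1 of 19 progenitor genes fell, with medians of -0.57 and -0.52.

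Vessel genes did not move as a block. Vegfa, the main endothelial growth factor, had 10.74, 10.75 and 10.85 in the controls and 11.28, 11.23 and 11.37 in the cold, a rise of 1.42-fold (SE 0.11, adjusted p = 0.00355), while its second probe set gave -0.37. Flt1, a VEGF receptor that also acts as a decoy, rose by 0.88 (7.75, 7.86 and 7.67 against 8.57, 8.56 and 8.77), and Kdr, the main signalling receptor, did not pass (8.67, 8.70 and 8.23 against 8.22, 8.33 and 8.34). Fgf1, an angiogenic and adipogenic growth factor, rose by 1.50 (7.77, 7.54 and 7.91 against 9.11, 9.39 and 9.22). Of 33 angiogenic ligands and receptors 5 rose and 5 fell, near or below the shares of 15% and 21.2% over all genes. The falls included Cxcl12 (-0.80), Notch1 (-0.73) and Pdgfb (-0.61), whose second probe sets gave 0.059, 0.095 and -0.16. The median of the list, -0.07, became 0.09 with centred arrays. Among 13 angiogenesis inhibitors 8 fell and 5 did not pass (median -0.63). Adamts1, a metalloprotease, went from 8.38, 8.92 and 8.80 to 7.12, 6.97 and 6.78 (log2 -1.74, SE 0.28), Col18a1, the source of endostatin, fell by 1.03 and Timp4 by 0.98. None of the 13 was called in limma with the Actb covariate, when 2 were lower at an unadjusted p under 0.05. The median of the 13 was then -0.34. Here too the share of all genes lower at that threshold is not given.

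Of 29 tested endothelial markers 11 fell, 4 rose and 14 did not pass (median -0.24), where the rises are near the 15% of all genes. The defining marker Pecam1, or CD31, went from 9.41, 9.28 and 9.05 to 7.98, 8.28 and 7.63 (log2 -1.28, SE 0.16, adjusted p = 0.000149), and Plvap, the diaphragm protein of fenestrated vessels, from 10.24, 10.28 and 10.42 to 9.08, 9.18 and 8.93. The other defining marker, Cdh5, or VE-cadherin, had overlapping groups of 8.87, 8.79 and 8.41 against 8.70, 8.83 and 8.83. Its second, dimmer probe set was at 2.14 and did not pass. Sox17, Mmrn2 and Rgcc rose by 0.46, 0.42 and 0.34, although the second Rgcc probe set fell by 0.44. Pericyte and smooth muscle genes had 5 of 14 up, led by Notch3 (0.69), and 2 down, with 2 or 3 up when any single array of 5 weeks was left out; the median was -0.03 as deposited and 0.12 with centred arrays. Lyve1, of lymphatic vessels and some macrophages, fell by 0.66. The other tested lymphatic markers, Pdpn (-0.33), Flt4 (-0.10), Mmrn1 (0.09) and Reln (-0.05), did not pass. In the hypoxia list 8 of 26 rose and 7 fell, beside 15% and 21.2% of all genes, so the falls are near the general share. Egln1, an oxygen sensor, rose by 1.06 and Epas1, or HIF-2α, by 0.40, while Adm (-0.94) and Hif1a (-0.32) fell. Other probe sets of Adm (-0.28), Hif1a (-0.20 and -0.31) and Epas1 (0.71) did not pass. The hypoxia median of -0.06 became 0.09 when arrays were centred.

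Stress, antioxidant and clock genes are given by their counts, beside 15% of all genes tested that rose and 21.2% that fell. The shares that rose in the stress and antioxidant lists are near that of all genes. In the unfolded protein and heat shock list 14 of 31 fell and 5 rose, the falls including Pdia3 (-1.37), Pdia6 (-0.97) and Hsp90b1 (-0.75) of the endoplasmic reticulum. The 5 rises were Hspa9 (0.66), Hspd1 (0.51) and Hspe1 (0.34), which are mitochondrial chaperones, Dnajb9 (0.57), a cochaperone of the endoplasmic reticulum, and Hspb1 (0.41), a small heat shock protein. In the antioxidant list 12 of 30 fell and 6 rose, namely Sod2 (1.25), Txnrd2 (1.10), Prdx3 (0.80) and Txn2 (0.79) of mitochondria, Gsta4 (0.94) and Mgst1 (0.29). Other probe sets of Pdia3 (0.14), Txnrd2 (-0.13, 1 of 3) and Hspe1 (-0.15) had the opposite sign. Of 17 clock genes 3 rose and 4 fell, near the shares over all genes: Cry1 rose by 1.09 and Dbp fell by 1.01, and array times of day were not given. The circadian median of -0.02 was positive with centring (0.13). Markers of epithelium and epididymis were mostly below the floor, with 6 of 23 bright enough to test and 1, Cldn3 (0.61), called.

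**Figure D4:**
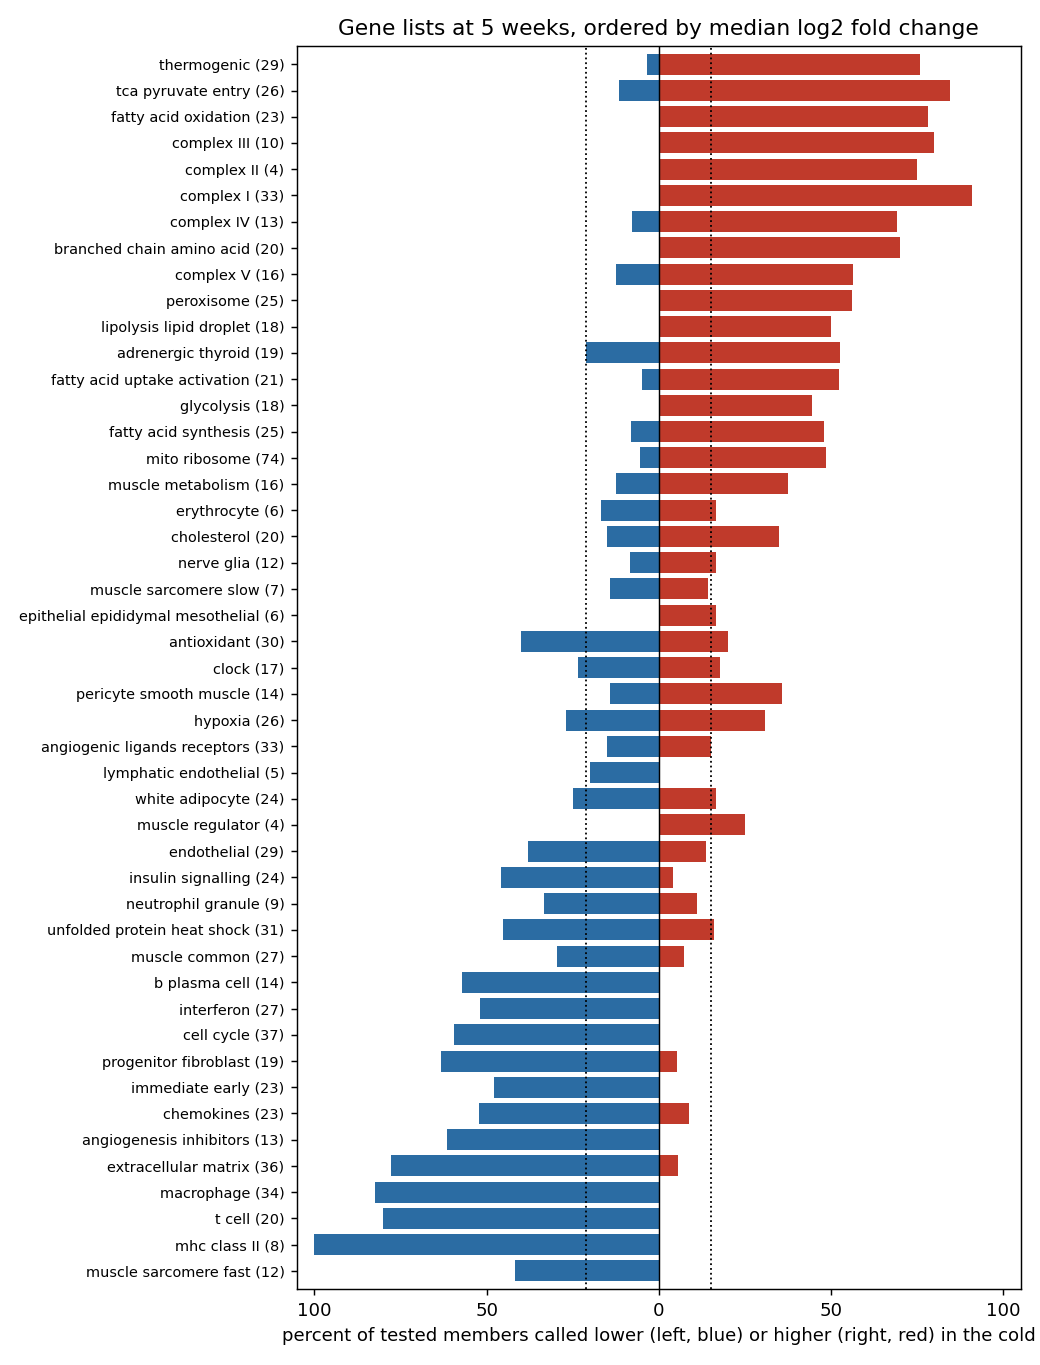
Percent of the tested members of each gene list (number tested in brackets) that fell (blue, left) or rose (red, right) after 5 weeks, ordered by median log2 fold change. Dotted lines mark the percentages over all genes tested, 15% higher and 21.2% lower; mitochondrial and thermogenic lists extend far to the right, and immune, MHC class II and matrix lists far to the left.

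Finally, the 5-week effect was set against that of 1 week in the same model. At 1 week 49.5% of genes tested were called, 31.6% lower and 17.9% higher. Of the genes called at both times 2713 moved the same way and 210 in opposite ways; the former are 58.3% of the 5-week calls and 42.7% of the 1-week calls. The effect itself differed for 2551 genes (19.8% of genes tested), 1474 higher and 1077 lower at 5 weeks. That count was 1381 to 3021 when any single array of the 12 was left out, at 1389, 1381, 1583 and 1455 without control_5wk array 1, control_5wk array 2, cold_5wk array 3 and control_1wk array 2. Among the largest rises Slc27a2, S100b, Tlcd4 and Pdk4 had a larger effect at 5 weeks, by 1.78, 1.42, 2.04 and 0.97 on the log2 scale (adjusted p = 0.00412, 0.00596, 0.00152 and 0.0252). The 5-week controls of Slc27a2 were below the floor, so the size of its difference is not fixed. For Ucp1 the effects differed by 0.06 (adjusted p = 0.957). Aspg and Kng1 had smaller effects, by -0.82 and -0.87, and so did Cox8b, by -1.55, whereas for Cidea the difference of -1.70 did not pass (adjusted p = 0.0558). Plvap rose by 1.29 at 1 week and was lower at 5 weeks, a difference of -2.54 (SE 0.26), and for Pecam1 the difference was -1.61 (SE 0.23). C1qa rose by 1.53 at 1 week and differed by -4.15 (SE 0.81).

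RNA quality ran in opposite directions at the 2 times, and the count of genes whose effect differed between times changed with it in the model. The Gapdh 3′ minus 5′ difference was 0.90, 3.00 and 3.12 in the 1-week controls and -0.08, 0.34 and -0.08 on the 1-week cold arrays, so it was higher in the controls at 1 week and higher in the cold at 5 weeks. C1qa followed it at 1 week too, with 10.56, 8.81 and 8.57 in the controls and 11.06, 10.38 and 11.10 in the cold. With the Gapdh difference as a covariate the effects of 3 genes differed, Bcap31, Hecw2 and Sit1, which were named after their values were seen (1390 genes at an unadjusted p under 0.05, against 4540 without the covariate). With that of Actb none did in limma (1004 at an unadjusted p under 0.05). In the 5-week contrast the Gapdh covariate left 4110 genes called, 3649 of them called in the same direction without it.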

How the data were processed

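White adipose tissue RNA was measured on 12 arrays in 4 groups of 3. The authors deposited log2 signals per probe set, made with GCRMA per the submitters' processing notes. Its version and options were not given in the sources used here. Because it normalizes arrays together, the values on 1 array depend on the others. No scan date or slide was given for any array.

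Of 45101 probe sets 34945 named 1 gene, 932 several and 9160 none, and 64 were controls. Probe sets above log2 4 on at least 3 arrays were tested, and the brightest stood for its gene (12855 genes). In R 4.3.3, limma 3.58.1 (lmFit, eBayes) fitted 4 group means over 12 arrays (8 residual degrees of freedom), with Benjamini-Hochberg adjustment over all genes tested and a call at an adjusted p under 0.05. A gene below log2 4 on all arrays of 1 group was given as "at least N-fold", with signals under 4 set to 4. In simulated data with 100 genes changed by log2 1 and 100 by log2 2, this recovered 87% and 98%, with 8 false calls. The simulated noise was independent between genes, with no shift of RNA quality or muscle signal between groups. The 8 false calls therefore do not measure false calls in the real contrast.

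Named were the 20 largest rises, 20 largest falls outside muscle and 10 largest muscle falls among calls whose groups of 3 did not overlap, up to 5 members per list by adjusted p and those against its direction, the 5 highest and 5 lowest differences between times, and some fixed markers. Muscle genes were those on muscle lists or higher by over 1 (log2) on cold_1wk array 2 than on its group mates. The comparison, the gene lists and the named markers were chosen with earlier results of these data known. Alternatives tried were other filters, centring, quantile normalization, the mean of probe sets, 6 arrays only, a replicate block, an intensity trend, covariates for RNA quality and muscle signal, the control_5wk arrays averaged as 1, and leaving out each of the 6 arrays of 5 weeks and, chosen after seeing the data, each of the 6 of 1 week. Promoters are from RefSeq (GRCm38.p6).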

Additional observations from a re-analysis of the deposited data

Results flagged for a closer look

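The cold effect differed between 5 weeks and 1 week for 2551 genes by the interaction term in limma. The 5 highest values, as the 5-week effect minus the 1-week effect on the log2 scale, were those of Kcnq1ot1, a long noncoding RNA (2.72), Ackr4, a scavenging chemokine receptor (2.72), Zfp119b, a zinc finger gene (2.33), Cdh19, a cadherin of glia (2.30), and Adgrg2, an adhesion receptor (2.28). A high value here need not mean a rise at 5 weeks. The Adgrg2 probe sets were at -0.13 and 0.21 at 5 weeks and did not pass. Cdh19 was at 1.17 at 5 weeks and -1.12 at 1 week and passed at neither time. Both Ackr4 probe sets rose at 5 weeks, by 2.18 and 2.19. For Kcnq1ot1 and Cdh19 cold_1wk array 2 was the lowest of its group. On it Kcnq1ot1 was at 6.77 against 9.06 and 9.03, and Cdh19 at 3.48 against 5.93 and 5.63. The 5 lowest were muscle genes, Atp2a1 (-5.87), Tnnt3 (-7.19), Tnnc2 (-7.38), Acta1 (-7.94) and Myh1 (-8.30), which were high on that same array and on the 5-week controls. Tnnt3, Tnnc2 and Myh1 were below the floor on all 5-week cold arrays, so the sizes and order of these values are not fixed.

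Outside the gene tests, 392 of 3484 tested probe sets that name no gene were higher after 5 weeks of cold and 315 were lower (11.3% and 9.04%, against 12.6% and 18.5% of all probe sets tested). Among 648 tested probe sets that name several genes, 85 were higher and 206 lower (13.1% and 31.8%).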

How the results depend on the processing

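The 4655 calls at 5 weeks were 3513 to 4025 when any single array of 5 weeks was left out, 4427 to 4999 without single arrays of 1 week (chosen after seeing the data), and 4402 to 5419 under other filters, centring, quantile normalization, the mean of probe sets, the 6 arrays of 5 weeks alone or an intensity trend. They fell to 2669 with muscle signal as a covariate, to 1608 with the control_5wk arrays averaged as 1 and to 795 with the Actb 3′ minus 5′ covariate. The 2551 genes whose effect differed between times became 1381 to 3021 on leaving out single arrays of either time, 760 with muscle signal, 3 with the Gapdh covariate, 1 (Bcap31, with 2811 at an unadjusted p under 0.05) with controls averaged and 0 in limma with the Actb covariate (1004 at an unadjusted p under 0.05); with 6 arrays alone no such value can be given. Replicate numbers did not pair the arrays (correlation of deviations -0.003, 0.019 and 0.0744), and with a replicate block 4571 genes were called at 5 weeks and 2456 between times. Of 320 named genes, 20 to 39 lost their call on leaving out single arrays of 5 weeks, 1 to 6 on leaving out those of 1 week, 8 with the block, 97 with controls averaged and 170 with the Actb covariate. That covariate turned the log2 fold change of Col8a1 (-0.101), Cox8a (0.901), Dbh (-0.122), Dmd (-0.16), Egln2 (0.161), Mrpl14 (0.159) and Msmo1 (0.00738). The mean of probe sets turned Gpam (-0.0491), Mrpl11 (0.297), Rgcc (-0.0499) and Rora (-0.168). No other named gene was reversed under any alternative run. With controls averaged, 17 of 34 macrophage, 6 of 20 T cell, 6 of 37 cell cycle and 4 of 27 interferon genes fell and 19 of 74 mitochondrial ribosome genes rose, where 6.36% of all genes tested fell and 6.15% rose. The cause of these changes was not tested. Signals near log2 4 bound the size of a change but not its direction, 3 arrays per group limit the precision, and muscle content, RNA quality and cold cannot be told apart within the 5-week arrays.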
